A study of Homo sapiens with 15 samples.

Results

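The KO2 line is a clone of RPTEC, an hTERT-immortalized human renal proximal tubule epithelial cell line, in which SETD2 was knocked out with a CRISPR/Cas9 guide. It was compared with the unedited wild-type (WT) line by ATAC-seq. In this assay a hyperactive Tn5 transposase cuts and tags DNA wherever chromatin leaves it accessible. The comparison used 6 of the 15 libraries of the study, 3 of KO2 and 3 of WT. The other 9 libraries, 3 each of the second knockout clone KO1 and of the rescue clones Rescue1 and Rescue2, were used only where named. Rescue1 and Rescue2 carry SETD2 re-expressed from a lentiviral vector and, by their clone names, descend from KO2. Each knockout line is 1 clone, so a difference from WT describes that clone. What the knockout and what clonal selection contribute cannot be told apart from these libraries. The labels do not say whether the libraries of a group came from separate cultures, so tests over libraries measure only the spread between libraries, which may be technical.

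SETD2 is the histone methyltransferase that places the third methyl group on lysine 36 of histone H3, a mark laid down along transcribed gene bodies. It is often inactivated in clear cell renal cell carcinoma, which arises from the proximal tubule. The mark is known for keeping transcription from starting inside gene bodies, and its loss has been tied to altered nucleosome positioning and chromatin opening. The guide used for the clones is shown here because it fixes where the gene was cut. It matches hg38 exactly at 1 place, chr3:47122997-47123016 on the plus strand, inside exon 3 of SETD2, which runs from 47120182 to 47124548. SETD2 is transcribed from the other strand. The capitals mark the adjacent PAM.
SETD2 guide and PAM: tagaatatgatgaccctcgtCGG
No ATAC peak covered the guide site in any of the 15 libraries, so the lists hold no direct readout of the edit. Across SETD2 and 5 kb on each side, peaks covered 4480, 3896 and 3880 bases in the WT libraries and 4801, 4213 and 5375 bases in the KO2 libraries, and the groups overlapped (log2 difference 0.22 ± 0.11, SE, adjusted p = 0.173). A frameshift in an exon need not change accessibility, so these values do not check the genotype.

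The lists held 212373, 196969 and 198666 peaks in the WT libraries and 220315, 220784 and 254650 in the KO2 libraries. The mean was 231916 ± 19689 (SD, n = 3) in KO2 against 202669 ± 8446 in WT, a difference of 29247 (exact permutation test, two-sided p = 0.1, the smallest that 3 libraries against 3 allow). Without KO2 replicate 3, which had the longest list, the difference was 17880. Bases under peaks overlapped between the groups (56.7 ± 4.56 Mb in KO2 and 51.7 ± 3.91 Mb in WT, exact permutation p = 0.3). The lists carry no read counts, so sequencing depth is unknown. The background level solved from fold enrichment and p, which stands in for depth, was 0.848 ± 0.111 reads piled up per base in KO2 and 0.906 ± 0.166 in WT (exact permutation p = 0.7). The cell type was checked at 13 renal tubule markers. All 13 had a promoter peak in 3 of 3 KO2 libraries and 12 in 3 of 3 WT libraries. The exception was LRP2, the endocytic receptor megalin, with 2 of 3 WT libraries. A promoter peak was found in 3 of 3 libraries of both groups at 2 of 6 leukocyte, 3 of 6 endothelial, 2 of 5 distal nephron and 2 of 3 podocyte markers. Among the others, PTPRC and SPI1 of leukocytes, TEK of endothelium and UMOD, AQP2 and SLC12A3 of the distal nephron had no promoter peak in any of the 6 libraries.

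More regions were open in every KO2 library and without a peak in WT than the reverse. Peaks of the 6 libraries merged into 312497 regions. A region was called gained when 3 of 3 KO2 and 0 of 3 WT libraries held a peak. It was called lost when 0 of 3 KO2 and 3 of 3 WT libraries did. By this rule 25485 regions were gained, 8.16% of all, and 9787 were lost, 3.13% of all. A further 126489 regions were open in all 6 libraries. These are counts with no test, since 3 libraries against 3 cannot pass a threshold in a single region. Just outside the rule lay 9218 regions open in 3 KO2 and 1 WT library, 16420 in 2 KO2 and no WT library, 9620 in 2 WT and no KO2 library, and 6488 in 3 WT and 1 KO2 library. KO2 libraries had longer lists, so the comparison was repeated with the 150000 peaks of lowest q from each library. The 207631 regions then held 15325 gained (7.38%) and 11161 lost (5.38%) regions, so that gained regions still outnumbered lost ones but by less. Of the regions gained with whole lists, 9953 (39.1%) were also called gained with the shorter lists, and of those lost, 3708 (37.9%).

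**Figure D1:**
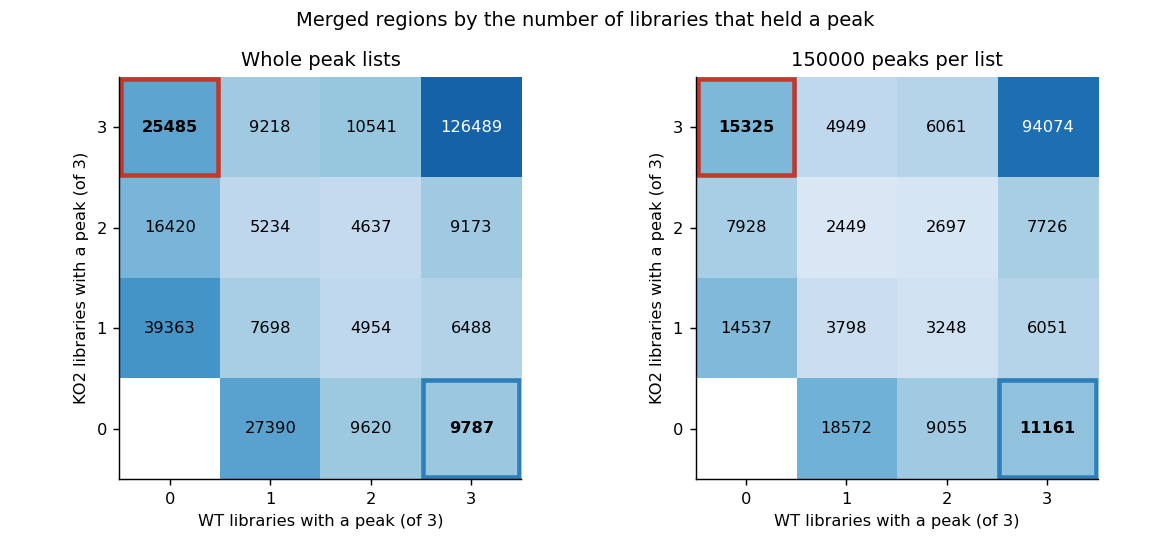
Merged regions by the number of KO2 libraries (y axis) and WT libraries (x axis) that held a peak, with whole lists on the left and 150000 peaks per list on the right; colour follows the log10 of the count. The gained corner (red frame) holds 25485 and 15325 regions and the lost corner (blue frame) 9787 and 11161.

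Changed regions were weaker than regions shared by all libraries. The median fold enrichment over local background was 6.22 in KO2 for gained regions and 5.56 in WT for lost regions. For regions open in all 6 libraries it was 9.35 in KO2 and 8.99 in WT, and over all merged regions 6.12 in both. A weak region is more easily missed in some libraries, so this order follows in part from the rule. Gained regions also lay farther from genes' starts. Their median distance to an annotated transcript start was 18007 bp, compared with 11709 bp for lost regions and 8996 bp for regions open in all 6 libraries. Promoters, taken as 1 kb on each side of a transcript start, held 8.02% of gained, 13.6% of lost and 21.7% of shared regions, beside 15.8% of all merged regions. Introns held 53.5% of gained and 52.7% of lost regions, and intergenic DNA 34.2% and 30.1%. Exons held 4.23% and 3.59%. Per library, 19.03 ± 0.829% of KO2 peaks and 20.7 ± 0.386% of WT peaks lay in promoters, and the groups did not overlap (difference -1.67 points, exact permutation p = 0.1). With 150000 peaks per list the difference was -1.23 points. Inside coding genes of 10 kb or more, with promoters left out, 34.2% of gained, 29.5% of lost and 32.5% of shared regions lay in the last of 3 equal parts of the gene. In the first part lay 32.5%, 36.1% and 34.1%.

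**Figure D2:**
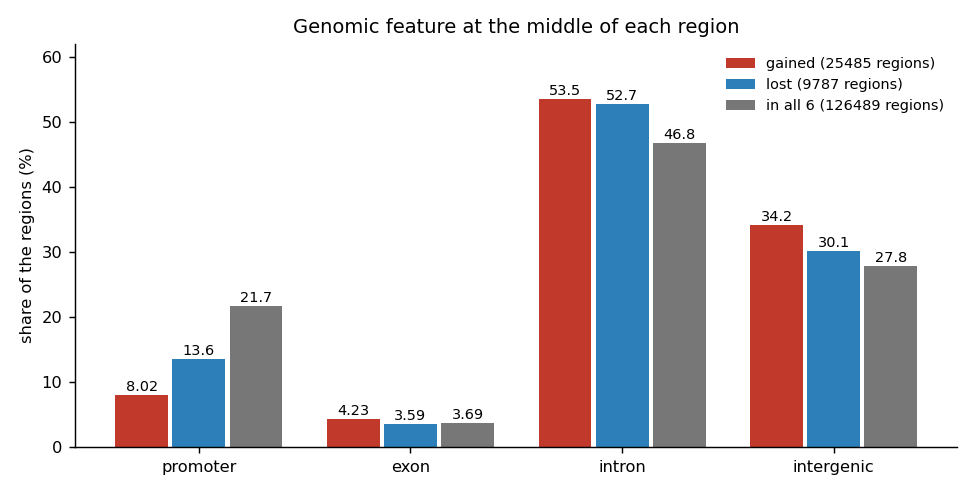
Share of regions (y axis, percent) whose middle lay in a promoter, exon, intron or intergenic DNA (x axis), for gained, lost and shared regions. Promoters hold 8.02% of gained and 21.7% of shared regions, and lost regions fall between them there, at 13.6%.

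The strongest changed regions show what the calls look like. The region of highest ranked enrichment among those gained was an intergenic one 55306 bp before COL5A1, the gene of a fibrillar collagen chain, with fold enrichments of 23.5, 26.7 and 25.8 in the 3 KO2 libraries and no peak in WT. It had a peak in 1 of 3 KO1 and all 6 rescue libraries. The second, in an intron of SPOCK3, a proteoglycan gene, had enrichments of 27.9, 22.9 and 23.8 and was open in all 9 KO1 and rescue libraries. The fourth was intergenic, with NDUFA4 as the nearest coding gene at 129154 bp, and was also open in all 9. Among lost regions, one near QKI, an RNA-binding protein gene 345622 bp away, had enrichments of 20.4, 20.6 and 20.7 in WT and no peak in any of the 12 other libraries. A region in an intron of ZNF793, a zinc finger gene, was open in WT at 16.99, 19.27 and 18.45, in none of the KO1 libraries and in all 6 rescue libraries. The lost region nearest to S1PR3, a sphingosine-1-phosphate receptor gene, had 20.2, 15.6 and 18.1 in WT, and peaks in 3 of 3 KO1 libraries but only 1 of 6 rescue libraries. The strongest lost region of all, in an exon of TAF3, was open in 3 of 3 KO1 and 6 of 6 rescue libraries, so KO2 alone among the 5 lines lacked it. The sequences below are 150 bases of hg38 around the median summit, plus strand. They are shown to place the letters of known transcription factor patterns at these summits, and capitals mark every match to the 17 patterns described next.
Gained, near COL5A1, chr9:134586413-134586562: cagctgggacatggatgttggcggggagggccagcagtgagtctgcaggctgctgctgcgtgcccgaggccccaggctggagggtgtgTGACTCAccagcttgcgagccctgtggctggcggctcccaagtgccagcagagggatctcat
Gained, SPOCK3 intron, chr4:167100220-167100369: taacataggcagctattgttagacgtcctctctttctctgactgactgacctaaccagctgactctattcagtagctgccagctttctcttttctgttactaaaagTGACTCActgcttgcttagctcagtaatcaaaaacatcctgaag
Gained, nearest gene NDUFA4, chr7:10802692-10802841: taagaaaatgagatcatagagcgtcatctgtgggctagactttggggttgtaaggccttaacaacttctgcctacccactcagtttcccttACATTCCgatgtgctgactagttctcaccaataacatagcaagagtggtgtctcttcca
Lost, nearest gene QKI, chr6:163924163-163924312: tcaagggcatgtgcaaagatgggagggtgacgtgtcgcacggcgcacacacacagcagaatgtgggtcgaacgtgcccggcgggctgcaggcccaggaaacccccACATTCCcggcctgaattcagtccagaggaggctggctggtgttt
Lost, ZNF793 intron, chr19:37519978-37520127: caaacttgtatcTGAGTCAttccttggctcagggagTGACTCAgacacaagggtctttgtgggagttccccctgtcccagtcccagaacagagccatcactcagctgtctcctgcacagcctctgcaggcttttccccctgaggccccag
Lost, nearest gene S1PR3, chr9:88880464-88880613: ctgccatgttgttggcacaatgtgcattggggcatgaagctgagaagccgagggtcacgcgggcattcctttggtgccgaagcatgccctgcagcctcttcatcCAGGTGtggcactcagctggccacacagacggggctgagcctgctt
The letters of the AP-1 pattern stand in the windows near COL5A1 and in SPOCK3 and at 2 places in that in ZNF793, the TEAD pattern in those near NDUFA4 and QKI, and an E-box in that near S1PR3. A match is a run of letters and not a bound site.

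Open chromatin in KO2 carried a different mix of sequence patterns from WT. For each library, the 200 bp around the summits of its 150000 strongest peaks were searched on both strands for 17 short patterns. The AP-1 pattern TGANTCA, bound by JUN and FOS dimers, stood in 34.5 ± 0.0204% of KO2 and 30.2 ± 0.150% of WT summit windows. The forkhead pattern TGTTTAC stood in 3.56 ± 0.00971% against 2.88 ± 0.00801%, the RUNX pattern TGTGGTT in 8.89 ± 0.0633% against 8.07 ± 0.0285%, and the POU octamer ATGCAAAT in 1.43 ± 0.00473% against 1.22 ± 0.00567%. In the other direction, the E-box CAGGTG, a core read by SNAI, ZEB and other E-box proteins, stood in 13.5 ± 0.0762% of KO2 and 16.7 ± 0.0654% of WT windows. The pattern GTTAATNAT of HNF1, a kidney and liver homeodomain factor, stood in 1.19 ± 0.0255% against 1.61 ± 0.0196%, and the TEAD pattern ACATTCC in 4.58 ± 0.0192% against 5.40 ± 0.0829%. The CTCF pattern AGNGGGCGC was also lower, at 1.66 ± 0.0420% against 1.89 ± 0.0380%. For 14 of the 17 patterns no KO2 library overlapped a WT library, each at the smallest exact permutation p of 0.1 and an adjusted p of 0.121. The sizes ranged from 0.742 of the WT share for HNF1 to 1.24 times for the forkhead pattern. Smaller differences without overlap were higher in KO2 for C/EBP (TTGCNNAA) and SOX (CATTGTT), and lower for interferon response (TTCNNTTTC), homeobox (TAATTA), ETS (CCGGAAG) and SP/KLF (GGGCGG). For C/EBP both groups were at 5.15% when windows of 100 bp were used. NF-kB (GGANTTTCC), HNF4 (CAAAGTCCA) and grainyhead (AACCGGTT) overlapped. The octamer and C/EBP letters can overlap one another, as can those of homeobox and HNF1. The G and C content of the same windows was 50.7% in each KO2 library and 50.8%, 51.0% and 51.05% in WT, and its part in these shares was not tested.

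**Figure D3:**
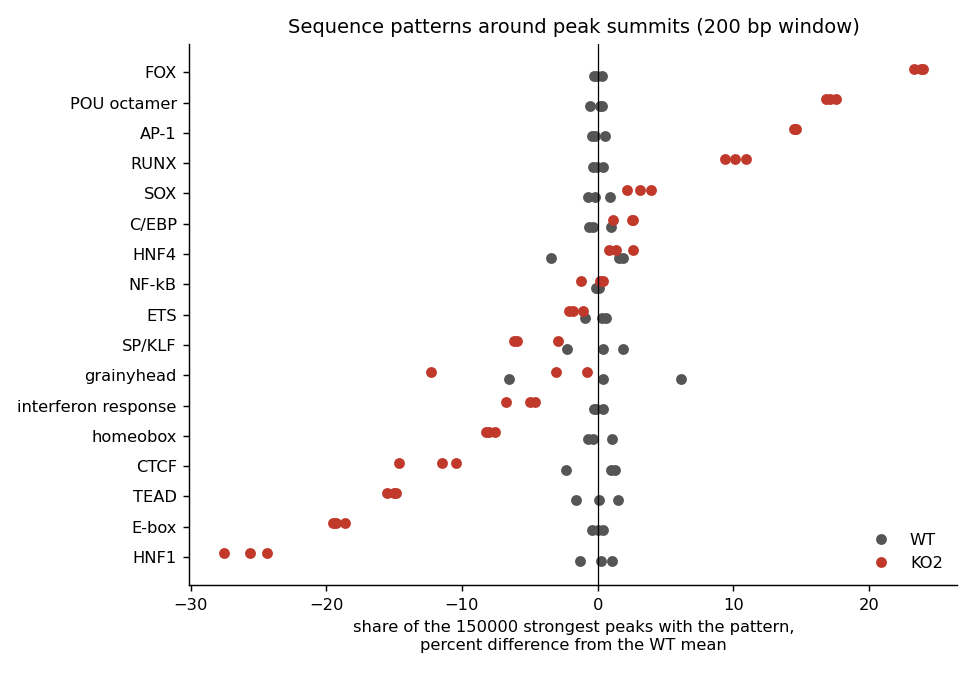
Share of summit windows with each pattern, drawn as the percent difference from the WT mean (x axis), 1 point per library, WT in grey and KO2 in red. FOX, POU octamer, AP-1 and RUNX lie to the right of WT and HNF1, E-box, TEAD and CTCF to the left, with all KO2 points apart from WT.

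The gained and lost regions differed in the same patterns. In the middle 200 bp, TGANTCA stood in 37.2% of gained, 17.1% of lost and 26.4% of all merged regions. The forkhead pattern stood in 5.38%, 2.28% and 3.38%, and the RUNX pattern in 11.1%, 7.07% and 7.74%. CAGGTG stood in 9.81% of gained, 26.5% of lost and 15.9% of all regions, HNF1 in 0.891%, 3.56% and 1.29%, and TEAD in 3.92%, 8.38% and 4.68%. The CTCF pattern stood in 0.188% of gained regions, beside 0.960% of lost and 1.78% of regions open in all 6 libraries. Outside promoters, where G and C made up 46.2% of gained and 47.6% of lost windows, AP-1 letters stood in 38.0% and 18.0%, and the E-box in 9.79% and 26.3%. These shares describe the same libraries as the library means and add no separate test.

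At gene level, bases under peaks were summed over each protein-coding gene and 5 kb on each side and compared with limma on log2(bases + 200). Of 16715 loci with a mean of 500 bases or more, 1892 were higher in KO2 (11.3%) and 1358 were lower (8.12%) at an adjusted p of 0.05, and KO2 and WT libraries did not overlap at 32.8%. Without WT replicate 1 the lower loci numbered 872. Higher loci made up 58.2% of the calls. They made up 38.8% with 150000 peaks per list and 24.5% when every library was scaled to the same total of bases. That scaling moved the median log2 difference of all loci from -0.01 to -0.13, so directions below are given for genes with their result under it where it changed. With equal totals 1940 loci (11.6%) were higher and 5970 (35.7%) lower. With 150000 peaks per list, 1337 of 16287 loci (8.21%) were higher and 2108 (12.9%) lower. The counts of the gene lists below stand beside these shares. The filter is on the mean of the 6 libraries. Of the 1892 higher loci 212, and of the 1358 lower loci 138, averaged under 500 bases in the lower group and so passed only through the group where they were high, which made a difference likely from the start. These include all 12 of the largest increases and 11 of the 12 largest decreases, whose values are given as a description. Among list members named below they include WT1, CDH11, DCN, SLC13A1, RSPO2 and KDR, which were higher, and GATA3 and KLF8, which were lower. Such members are counted in the lists, and their calls are a description too. All log2 values are differences in bases under peaks, not in height or expression.

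The largest increases included 6 genes with no bases under peaks in WT. COL5A1, a type V collagen chain, had 0 bases in all 3 WT libraries and 7668, 6887 and 7996 bases in KO2, with 26 gained regions of 39 in the locus. It had 535 bases on average in KO1 and 8489 and 8783 in Rescue1 and Rescue2, so that KO1 lay far below KO2 and both rescue clones there. SNTG1 (a syntrophin), FBXL7 (an F-box protein), ADAMTS2 (a procollagen peptidase), LRRTM4 (a synaptic adhesion protein) and CALN1 (a calcium-binding protein) were also listed at 0 in every WT library, with KO2 means from 3047 to 5177 bases. Because a fold against 0 has no value, none is given for these 6 genes. EYA1, a transcriptional co-activator of early kidney development, rose from 289, 78 and 176 bases to 6122, 5911 and 6618 (log2 4.11 ± 0.14, SE), with 5406 bases in KO1 and 1642 and 1398 in the rescue clones. PDPN, the mucin-like protein podoplanin, rose from 0, 81 and 89 bases to 3301, 3577 and 3580, all above WT. GRIN2A, a glutamate receptor subunit, rose from 414 ± 46.9 to 7319 ± 439 bases (SD, n = 3). SLC27A6, a fatty acid transporter, rose from 422 ± 290 to 6344 ± 413 bases, MCTP2 from 226 ± 84.4 to 4590 ± 510 and the orphan receptor GPR141 from 25.7 ± 44.5 to 2337 ± 321. All 12 were also higher with 150000 peaks per list and with equal totals. This adds little, since they were picked as the largest increases in the same libraries.

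The largest decreases included 4 loci left with no bases in KO2. ADGRD1, an adhesion G protein-coupled receptor, had 2679, 2350 and 2302 bases in WT and 0 in every KO2 library, and it was also listed at 0 in all 9 KO1 and rescue libraries. JAM3, a junctional adhesion molecule, went from 1946, 2071 and 1953 bases to 0 in all 3 KO2 libraries. It was 0 in KO1 and 497 and 726 bases in Rescue1 and Rescue2. PHACTR3, an actin and phosphatase regulator, went from 1629 ± 262 bases to 0, and ZNF667, a zinc finger gene, from 1543 ± 113 to 0. FAAH2, a fatty acid amide hydrolase, fell from 1622 ± 197 to 25.3 ± 43.9 bases and stood at 1135 and 969 in Rescue1 and Rescue2. DMKN, an epidermal secreted protein, fell from 1737 ± 53.5 to 170.7 ± 42.9 (log2 -2.39 ± 0.13, SE), while Rescue1 and Rescue2 had 1690 and 1677. LYG1, EMC10, TRO, SMOC2 (a matrix glycoprotein) and KLK15 (a kallikrein protease) fell by 1.90 to 2.28 on the log2 scale. ROBO2, an axon guidance receptor with a role in ureteric bud outgrowth, fell from 2247, 1756 and 1781 to 328, 257 and 468 bases. In KO1 the same locus had 11326 bases, above every WT library. All 12 were lower with equal totals, and 11 with 150000 peaks per list, where TRO was below the filter. That too adds little, since they were picked as the largest decreases in the same libraries.

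**Figure D4:**
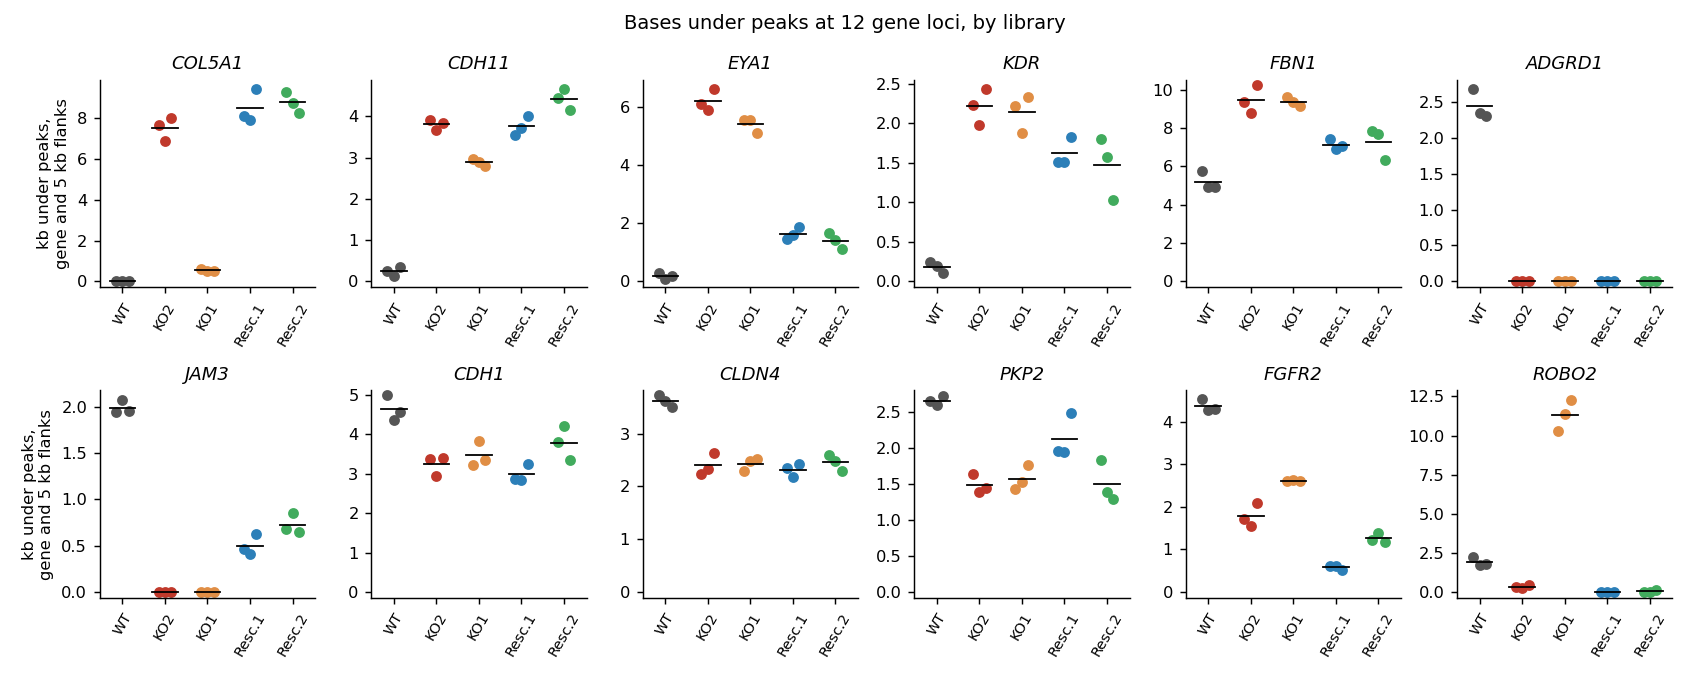
Bases under peaks (y axis, kb) at 12 gene loci with 5 kb flanks in each library, grouped by line, with the mean as a line. KO2 points stand apart from WT in all panels, KO1 follows KO2 at EYA1, KDR and JAM3 but not at COL5A1 or ROBO2, and the rescue clones return part of the way to WT at EYA1 and JAM3.

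Of 20007 coding gene loci 33.3% held a gained region and 21.7% a lost one. DLG2, a synaptic scaffold gene of 2173 kb, held the most, with 51 gained and 0 lost regions and rose from 9146 ± 706 to 26442 ± 3586 bases. LRP1B held 38, TENM3 37, MAGI2 33, PDE4D 32, OPCML 31, NTM 30 and ANKFN1 27. All 8 loci were higher in KO2, which adds little, since they were picked by gained regions in the same libraries. These genes are long, from 635 to 2173 kb, and each locus held 63 to 224 merged regions. LRP1B is a lipoprotein receptor family member, and TENM3, OPCML and NTM are cell adhesion proteins of the nervous system. PDE4D, a cAMP phosphodiesterase, changed least (log2 0.29 ± 0.10, adjusted p = 0.0482), with 32 gained regions among 224. Lost regions were most numerous in DPP6, a potassium channel accessory protein, with 19, which fell from 7905 ± 712 to 2204 ± 283 bases. PCSK5, a proprotein convertase, held 17, and ATP9B, a phospholipid flippase, 15. ATP9B fell from 5649 ± 504 to 1551 ± 155 bases and stood at 3298 in KO1 and 5690 and 6026 in Rescue1 and Rescue2. RBFOX1 held 14 lost regions beside 12 gained ones, TRAPPC9 14 beside 2, NAV2 13 beside 5 and CCBE1 12 beside 1. NAV2 did not pass the test (log2 -0.17 ± 0.10, adjusted p = 0.251) but did with 150000 peaks per list (log2 -0.19, adjusted p = 0.0386) and with equal totals (log2 -0.30, adjusted p = 5.58e-09).

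Among 33 tested genes of epithelial junction and adhesion, 12 were lower (36.4%) and 2 higher (6.06%), beside 8.12% and 11.3% over all loci. The median log2 difference was -0.19 against -0.01 for all loci. CDH1, which encodes E-cadherin, fell from 4999, 4354 and 4559 to 3371, 2931 and 3402 bases (log2 -0.49 ± 0.10, SE, adjusted p = 0.00116). PKP2, a desmosomal plakophilin, fell from 2665 ± 64.4 to 1493 ± 128 bases with 3 lost regions. CLDN4, a tight junction claudin, fell from 3624 ± 115 to 2400 ± 206 bases and MUC1, an apical mucin, from 1851 ± 138 to 1150 ± 175. TJP3, PKP3, KRT18, GRHL2, CGN, KRT7 (limma adjusted p = 0.251 with 150000 peaks per list), ST14 and CDH16 were the others. The exceptions were DSC2, a desmosomal cadherin, which rose from 599 ± 105 to 1128 ± 112 bases, and CLDN10, which rose by 0.34 on the log2 scale (adjusted p = 0.0373), with groups that overlapped, but had an adjusted p of 0.859 with 150000 peaks per list. With the shorter lists 14 genes of the list were lower and 1 higher, and with equal totals 24 and 2.

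Of 30 tested mesenchymal and matrix genes, 8 were higher (26.7%) and 1 lower (3.33%), beside 11.3% and 8.12% over all loci. The median log2 difference was 0.15. The counts were again 8 and 1 with 150000 peaks per list, and with equal totals 8 were higher and 4 lower. COL5A1, CDH11 and DCN passed the filter only through KO2, so they are counted among the higher genes as a description. Beside COL5A1, CDH11, a cadherin of mesenchymal cells, rose from 240 ± 99.1 to 3809 ± 122 bases with 14 gained regions, and FBN1, the microfibril protein fibrillin, from 5209 ± 468 to 9469 ± 740 with 11. DCN (decorin), COL6A3, PDGFRA, LOXL2 (a matrix cross-linking enzyme) and ACTA2 (smooth muscle actin) were also higher. COL5A2 was the member that fell, from 2590 ± 289 to 1966 ± 312 bases. Of 21 transcription factor genes known for epithelial-mesenchymal transition (EMT), 3 were higher (14.3%) and 2 lower (9.52%), near the shares over all loci. The counts were 2 and 2 with 150000 peaks per list and 3 and 4 with equal totals. TWIST2 rose from 3392 ± 396 to 5365 ± 262 bases, FOXQ1 from 939 ± 157 to 1469 ± 149 and PRRX1 from 1607 ± 188 to 2168 ± 204. With 150000 peaks per list the adjusted p was 0.0024 for TWIST2, 0.42 for FOXQ1 and 0.84 for PRRX1. KLF8 fell from 1241 ± 236 to 391.7 ± 182 bases and SNAI3 from 1097 ± 116 to 765 ± 265, where the groups overlapped. The other 16 tested genes of this list were not called. They included SOX2 (log2 0.002, limma adjusted p = 0.994) and POU2F2 (log2 0.09, limma adjusted p = 0.62).

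Of 26 tested developmental and identity factors, 2 were higher (7.69%) and 5 lower (19.2%), beside 11.3% and 8.12% over all loci. EYA1 and WT1 rose, WT1 from 356 ± 76.0 to 1274 ± 253 bases, and both passed the filter only through KO2. GATA3, a factor of the nephric duct and distal nephron, fell from 1175 ± 225 to 225.7 ± 56.4 bases, with 1136 in KO1. IRX1, TFCP2L1 and SIX2 fell by 0.67, 0.35 and 0.31 on the log2 scale. With 150000 peaks per list the counts were again 2 and 5, though GATA3 was then below the filter, and with equal totals they were 3 and 10. Of 30 tested genes of proximal tubule transport and metabolism, 7 were higher (23.3%) and 5 lower (16.7%). The counts were 6 and 7 with the shorter lists and 7 and 14 with equal totals. SLC13A1, the sodium-sulphate cotransporter, rose from 188 ± 26.0 to 1797 ± 182 bases with 7 gained regions. LRP2 rose from 1495 ± 217 to 2393 ± 395 bases, though its adjusted p was 0.086 with 150000 peaks per list, and the aminopeptidase gene ANPEP from 918 ± 122 to 1850 ± 265. SLC9A3, the apical sodium-proton exchanger, fell from 1955 ± 311 to 1229 ± 54.0 bases, and MIOX, a renal oxygenase of inositol, from 954 ± 127 to 508.3 ± 23.2.

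Of 53 tested WNT genes, 11 were higher (20.8%) and 8 lower (15.1%), beside 11.3% and 8.12% over all loci. The potentiators RSPO2 and RSPO3 rose, RSPO2 from 301 ± 9.82 to 2094 ± 327 bases, as did the receptor LGR5, from 2124 ± 38.4 to 3804 ± 305. The inhibitors DKK2 and NKD1 rose as well, DKK2 from 1568 ± 134 to 3762 ± 160. WNT7A fell from 6441 ± 540 to 2911 ± 569 bases with 5 lost regions, and RNF43, a ligase that removes WNT receptors, from 3110 ± 441 to 1778 ± 235. With 150000 peaks per list 9 were higher and 11 lower, and with equal totals 11 and 20. Of 46 growth factor and receptor genes, 7 were higher (15.2%) and 4 lower (8.70%), near the shares over all loci, against 3 and 10 with the shorter lists and 8 and 19 with equal totals. KDR, a receptor for vascular endothelial growth factor, rose from 180 ± 66.2 to 2214 ± 230 bases, and BMP7 from 1137 ± 156 to 2158 ± 254. FGFR2 fell from 4363 ± 146 to 1778 ± 275 bases with 7 lost regions, and stood at 587 and 1258 in Rescue1 and Rescue2. Of 37 cytokine and chemokine genes, 6 were higher (16.2%) and 5 lower (13.5%), the latter including CCL28 and TSLP. The higher ones included CXCL12 (927 ± 213 to 1926 ± 182 bases) and CCL2 (limma adjusted p = 0.297 with 150000 peaks per list). CCL2 also had a lost promoter region, with no peak in any KO1 or rescue library. For this list the counts were 5 and 6 with 150000 peaks per list and 5 and 14 with equal totals. Of 42 interferon response genes, 8 were higher (19%), among them GBP5 and MX2, and 6 lower (14.3%), among them STAT2 (2058 ± 88.6 to 1419 ± 187 bases) and OAS1. With 150000 peaks per list this list had 4 higher and 9 lower, and with equal totals 4 and 13.

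For the remaining lists, the shares higher and lower stand beside 11.3% and 8.12% over all loci. They were 8.57% and 2.86% for HOX genes, and 8.70% and 0% for AP-1 and related bZIP factors. For writers and erasers of H3K36 methylation they were 18.8% and 0%, and for renal tubule markers 7.69% and 23.1%. Of 35 HOX genes 3 were higher (HOXD13, HOXB8 and HOXB5) and 1 lower (HOXA11), against 3 and 7 with 150000 peaks per list and 3 and 12 with equal totals. Of 23 genes of AP-1 and related bZIP factors 2 were higher, BATF and ATF2, and none was lower in the limma fit, while with 150000 peaks per list 2 were higher and 2 lower and with equal totals 2 and 8. Of 16 tested writers and erasers of H3K36 methylation 3 were higher, KDM4A, KDM4B and RIOX2, with log2 differences of 0.34, 0.39 and 0.58, against 2 higher and 2 lower with the shorter lists and 3 and 4 with equal totals. KDM4A and KDM4B are demethylases. Of 13 renal tubule markers LRP2 was higher and CDH1, CDH16 and KRT18 lower, and with equal totals 1 was higher and 6 lower. Of the 4 tested leukocyte and 3 tested distal nephron markers none passed in the limma fit at the adjusted threshold, and with equal totals 1 of each was lower. Of 6 endothelial markers KDR was higher, and of 3 podocyte markers 1 was higher and 1 lower, the latter NPHS1, from 2438 ± 187 to 540.7 ± 64.6 bases with 6 lost regions.

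At promoters, 1347 of 20007 coding genes (6.73%) had a gained region within 1 kb of a transcript start and 978 (4.89%) a lost one. Among the strongest gained were promoters of GHR, the growth hormone receptor, of ZBBX, ARHGAP32, MS4A5 and MAST4, of SLITRK6, and one shared by GPR141 and a gene named only by its identifier, ENSG00000290149. Every one of these was open in 3 of 3 KO1 libraries, and all but the MS4A5 promoter in 6 of 6 rescue libraries. Among the strongest lost were promoters of MAPK10 (a JUN kinase), ZSCAN5A, JAM3, FFAR2, ACADSB, MTMR8, FAAH2 and NME5. The JAM3 promoter region had no peak in any of the 9 KO1 and rescue libraries, that of FAAH2 had a peak in 0 of 3 KO1 and 6 of 6 rescue libraries, and that of ACADSB in all 9. Genes of the lists with gained promoter regions included WT1, ACTA2, RIGI (a sensor of viral RNA), EYA1, COL6A3, CDH11 and COL5A1, each open in 3 of 3 KO1 libraries.

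In 500 kb windows, 1649 of 5385 (30.6%) had more bases under peaks in KO2 and 230 (4.27%) fewer, by limma at an adjusted p of 0.05. That fit treats the spread of windows as nearly constant, so these counts are a description. Windows with more bases were 87.8% of the calls, 66.0% with 150000 peaks per list and 49.5% with equal totals. The window chr9:134500001-135000000, with COL5A1, FCN2 and FCN1, held 45 gained regions. It had 58, 49 and 61 peaks in KO2 and 1, 1 and 0 in WT, with 11, 13 and 12 in KO1 and 51 to 61 in the rescue libraries. The window chr11:112500001-113000000, which holds NCAM1, a neural cell adhesion molecule, held 32 gained regions. The others with most gained regions were chr16:77500001-78000000 (34 regions, NUDT7 and VAT1L) and, with no coding gene, chr12:127500001-128000000 (33) and chr12:115000001-115500000 (32). The window with most lost regions was chr12:131000001-131500000, around ADGRD1. It had 45, 40 and 44 peaks in WT and 0 in each KO2 library, and all 33 of its regions open in 3 of 3 WT libraries were lost. It had 0 to 1 peak in KO1, 0 in Rescue1 and 0 to 2 in Rescue2 libraries. The others were chr18:79000001-79500000 (20 lost regions, SALL3, ATP9B and NFATC1), chr7:154500001-155000000 (18, DPP6 and PAXIP1), chr19:35500001-36000000 (18) and chr19:50000001-50500000 (18).

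Unbroken runs of changed regions were then listed, a description added after the windows had been seen. Among successive regions open in all WT libraries, the longest run of lost ones was 36 regions over 688 kb around ADGRD1 (chr12:130916252-131604719). The second was 16 regions over 167 kb without a coding gene (chr10:131592071-131758887), where WT libraries had 18, 17 and 18 peaks and none of the other 12 libraries had any. The third was 13 regions at EIPR1 on chromosome 2, where Rescue1 and Rescue2 libraries had 24 to 30 peaks, more than the 18, 18 and 19 in WT. Among successive regions open in all KO2 libraries, the longest runs of gained ones were 48 regions over 2405 kb with SNTG1 and PXDNL, 41 regions over 1682 kb of chromosome X with GLUD2 and the CT47 genes, and 38 regions over 341 kb with COL5A1 and FCN2. Runs of 10 or more regions numbered 168 for gained and 9 for lost regions. Chromosome 19 departed from the other autosomes and X. It held 316 gained (4.44%) and 379 lost (5.33%) regions, and was the only one of these chromosomes with more lost than gained. On the others gained regions made up 6.65% to 9.95%, and lost regions 2.64% to 3.60%.

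The regions were then examined in the 9 libraries that had no part in choosing them. A peak lay in 71.7 ± 3.43% (SD, n = 3) of KO2-gained regions in KO1 libraries, in 55.8% on average in Rescue1 and in 64.2% in Rescue2. The rescue libraries averaged 60.02 ± 6.78% (SD, n = 6), so that KO1 was 11.7 points higher (exact permutation test, two-sided p = 0.0714). With 150000 peaks per list the difference was 15.5 points (exact permutation p = 0.024, the smallest for 3 libraries against 6). Of the gained regions 57.4% were open in 3 of 3 KO1 libraries, 37.2% in 6 of 6 rescue libraries and 3.42% in none of the 9. Lost regions had a peak in 13.2 ± 1.49% in KO1 and 34.7 ± 8.12% in rescue libraries, 29.7% in Rescue1 and 39.7% in Rescue2 (difference -21.5 points, exact permutation p = 0.024). They were closed in 3 of 3 KO1 libraries in 75.9% and in all 9 libraries in 31.2%, and open in 6 of 6 rescue libraries in 12.96%. Regions open in all 6 KO2 and WT libraries had a peak in 95.2% in KO1 and 95.8% in rescue libraries. Over all merged regions the shares were 60.03% in KO1 and 62.9% in rescue libraries. That set mixes regions open in all 6 libraries with others, so it is no baseline for gained regions. Regions with a peak in 3 of 3 KO2 and 1 of 3 WT libraries were open in 76.3% in KO1 and 74.6% in rescue libraries. Regions with a peak in 2 of 3 KO2 and 0 of 3 WT libraries, just outside the rule for gained ones, were open in 37.5% in KO1 and 35.5% in rescue libraries (difference 1.96 points, exact permutation p = 0.667). Rescue libraries held more of the lost regions than KO1 libraries did. For gained regions the difference reached the smallest possible p only with 150000 peaks per list. The 9 libraries come from the clones KO1, Rescue1 and Rescue2 alone. The permutations over libraries therefore compare these clones and do not test knockout against rescue. Rescue clones differ from KO2 by a second round of cloning as well as by SETD2, which cannot be told apart here.

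**Figure D5:**
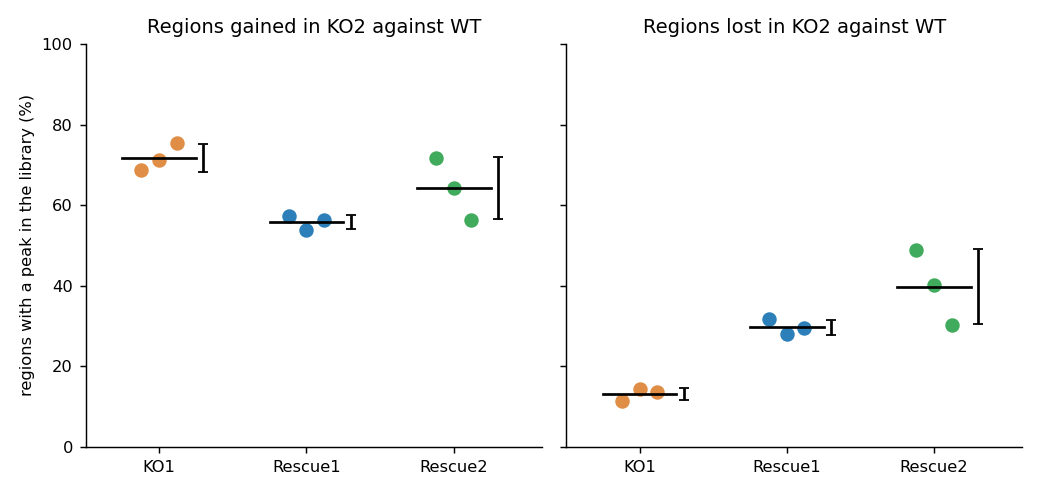
Share of regions gained (left) and lost (right) in KO2 against WT that held a peak in each KO1, Rescue1 and Rescue2 library (y axis, percent), 1 point per library with the mean as a line and the SD beside it. KO1 lies above most rescue libraries for gained regions and below all of them for lost regions.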

How the data were processed

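ATAC-seq peak lists of 3 KO2 and 3 WT libraries of the RPTEC line were compared, with 9 KO1 and rescue libraries read out at the called regions. The authors aligned reads to hg38 with BWA (0.7.17 in the submitters' processing notes) and called peaks in each library separately with MACS2 2.2.7.1. In the deposited lists each peak has an interval, a score, the fold enrichment as a ratio, −log10 p, −log10 q and a summit. The deposited score, a whole number made from −log10 q, was not used. The deposited fold, −log10 p and −log10 q relate a peak to its own library, so they only ranked peaks within a list and gave the background level. DiffBind 2.14.0 is also named in those notes, and its output was not used here. The lists hold no read counts, so depth is unknown. Control tracks and duplicate removal are not given in the sources used here. A region without a peak is below the calling threshold, not shown to be closed; calling at that threshold and 3 libraries a group set the precision.

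Peaks on chromosomes 1 to 22, X and Y sharing 1 bp were merged. Features, promoters (1 kb on each side of a transcript start) and genes came from GENCODE release 44. All 99 contigs matched the reference by name. Bases under peaks per coding gene with 5 kb flanks and per 500 kb window, with a mean of 500 or more, were fitted as log2(bases + 200) with limma 3.58.1 (R 4.3.3, trend, Benjamini-Hochberg, threshold 0.05). This log scale understates changes of loci with few bases. Library values were compared by exact permutation, two-sided. In simulated gene loci for KO2 against WT (16454 loci) limma called 97.9% of those changed by 1 on the log2 scale. It called 52% of those changed by 0.5 and 1 of 16259 unchanged. Noise was drawn independently at each locus, with no shift shared by a library. These rates therefore do not measure false calls in the real lists.

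The genes named were SETD2, the 12 largest changes each way past the threshold without overlap, the 8 with most gained and lost regions, the 8 strongest promoters each way, and members of 12 gene lists and 5 marker lists. Members, lists and patterns were chosen with earlier results of these data known. Alternatives were 150000 peaks per list, −log10 q of 5 or more, a larger overlap of peak and region, a majority rule, equal totals, other pseudocount, filter, flank, promoter and window, and leaving out each library. Replicate numbers were not taken to pair samples: deviations from group means of same-numbered libraries correlated at -0.00376, 0.0253 and -0.0121. Windows' p-values are not printed, since the fit treats their spread as nearly constant. Some genes that the naming rule or the lists cover are not reported here.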

Additional observations from a re-analysis of the deposited data

Results flagged for a closer look

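Bases under peaks at ROBO2 moved in opposite directions from the same WT libraries in the 2 knockout clones: every KO2 library (328, 257 and 468 bases) lay below every WT library and every KO1 library above, and the difference of the means, KO2 minus KO1, was -10975 bases. This difference between clones was not tested. Groups of 3 libraries are too small to single out a library that stands apart from its group.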

How the results depend on the processing

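Gained regions numbered 25485, and 15325 with 150000 peaks per list and 56357 when a peak in 2 or 3 libraries of one group and 0 or 1 of the other was enough, and lost regions numbered 9787 and 30849 under that majority rule. Leaving out a library gave 27798 to 33636 gained and 11053 to 13951 lost regions. Gene loci with fewer bases numbered 1358, 2108 with 150000 peaks per list and 5970 with equal totals, and 500 kb windows with fewer bases 230, 737 and 1871 (the cause was not tested). Leaving out a library gave 1345 to 2489 loci with more and 872 to 1663 with fewer bases, the lowest without WT replicate 1, and 1261 to 2064 and 155 to 332 windows. Higher loci were 58.2% of the calls, 44.7% without KO2 replicate 3 and 74.1% without WT replicate 1. The KO2 minus WT difference in peaks ranged from 17880 to 35048 and in promoter share from -2.09 to -1.26 points, and 14 to 15 patterns did not overlap. KO1 minus rescue was 9.39 to 13.3 points at gained regions, and 15.5 (p = 0.024, exact permutation test) with 150000 peaks per list, and -22.1 to -19.1 at lost regions, where leaving out a KO1 library left a smallest possible p of 0.0714. With the replicate number as a block, which the correlations do not bear out as a pairing, loci numbered 2013 higher and 1537 lower and windows 1489 and 192. This block fit treats the spread of loci as nearly constant too, so its counts are a description. The sign-flip p was 0.25, its smallest, for 29247 peaks and for the promoter share. The other alternatives kept counts within 1.5 times. Differences of a few peaks at the threshold are limited by depth, which is unknown.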
